A study of Mus musculus with 8 samples.

Results

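The miR-148/miR-152 family consists of miR-148a, miR-148b and miR-152, each counted here with the mature miRNA from both arms of its hairpin, which gives 6 members of the 1881 mouse miRNAs on the array. They were chosen by name, and all 6 have probes. The 3 members from the 3p arm were detected on all 8 arrays and tested; the 3 from the 5p arm were detected on none. The study compared whole kidneys of 4 control samples (strain label C57BLKS/J Iar -m+/m+, source label m/m, titles dbm) with 4 samples of db/db mice (C57BLKS/J Iar -+Leprdb/+Leprdb), all male and 28 weeks old. Db/db mice carry a leptin receptor mutation in every tissue and become obese and diabetic. The groups therefore differ in the whole state of the animal and not in the kidney alone. Total RNA (100 ng) was labelled with Cy3 and hybridised to 1 single-colour Agilent array per sample. Whether the samples of a group are separate animals is not stated in the labels, and the p-values cover the spread among the arrays, which may be technical.

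miRNAs pair with messenger RNAs mainly through bases 2 to 8 from their 5′ end, the seed, and lower the stability or translation of their targets. Members that share a seed are predicted to share most targets, while the bases outside the seed set them apart. The miR-148/miR-152 family is known for acting on Dnmt1, the maintenance DNA methyltransferase, and miR-148a is known in the liver for acting on the mRNAs of the LDL receptor and of Abca1, a cholesterol exporter. The 3p arm is the guide strand of each hairpin, and the 5p arm is its usually less abundant partner.

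The mature sequences are shown because the arrays have to tell apart members that differ by few bases (RefSeq, GRCm38.p6, 5′ to 3′, seed in capitals; 6 of 6 members matched by name).
mmu-miR-148a-3p: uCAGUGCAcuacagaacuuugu
mmu-miR-148b-3p: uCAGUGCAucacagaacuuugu
mmu-miR-152-3p: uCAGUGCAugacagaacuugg
mmu-miR-148a-5p: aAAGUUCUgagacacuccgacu
mmu-miR-148b-5p: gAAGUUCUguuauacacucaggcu
mmu-miR-152-5p: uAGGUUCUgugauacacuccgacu

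The 3p members share 1 seed, and no other of the 1679 mature mouse miRNAs in the RefSeq table holds it. That table matched 1608 of the 1881 array miRNAs by name, so the others were not searched. Counted from the 5′ end, mmu-miR-148a-3p and mmu-miR-148b-3p have 20 of 22 bases in common and differ by C9U and U10C, directly after the seed (base of the first-named miRNA, position, base of the second). mmu-miR-148a-3p and mmu-miR-152-3p have 18 of 21 compared bases in common and differ by C9U, U10G and U20G. mmu-miR-148b-3p and mmu-miR-152-3p have 19 of 21 in common and differ by C10G and U20G. The 5p arms fall into a pair with 1 seed, mmu-miR-148a-5p and mmu-miR-148b-5p, and mmu-miR-152-5p with a seed of its own.

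The genes lie on separate chromosomes. In the RefSeq table, Mir148b lies within Copz1 and Mir152 within Copz2, both on the strand of their host. These paralogous hosts encode zeta subunits of the COPI coat, which carries vesicles from the Golgi to the endoplasmic reticulum. Mir148a lies within the predicted gene Gm38821. The hairpins are shown with the 3p arm in capitals, to place the measured arm in its precursor (RefSeq, GRCm38.p6, 99, 97 and 73 bases).
Mir148a: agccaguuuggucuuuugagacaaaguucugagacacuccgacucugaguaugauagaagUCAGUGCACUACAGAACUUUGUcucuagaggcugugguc
Mir148b: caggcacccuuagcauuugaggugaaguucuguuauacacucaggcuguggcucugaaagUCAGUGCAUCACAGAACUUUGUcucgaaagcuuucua
Mir152: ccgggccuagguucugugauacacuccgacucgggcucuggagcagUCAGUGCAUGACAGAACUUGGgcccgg

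The array read each 3p member with 2 probes of different length, which start at the last base of the miRNA and stop within its seed. The part that differs between the members lies inside these probes, as the sequences show (as the array files give them, 5′ to 3′).
mmu-miR-148a-3p, 19 bases: acaaagttctgtagtgcac
mmu-miR-148a-3p, 20 bases: acaaagttctgtagtgcact
mmu-miR-148b-3p, 18 bases: acaaagttctgtgatgca
mmu-miR-148b-3p, 19 bases: acaaagttctgtgatgcac
mmu-miR-152-3p, 16 bases: ccaagttctgtcatgc
mmu-miR-152-3p, 17 bases: ccaagttctgtcatgca

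Each mmu-miR-148a-3p probe has 2 mismatches to mmu-miR-148b-3p and 4 to mmu-miR-152-3p, counting an unpaired end as a mismatch. Each mmu-miR-148b-3p probe has 2 mismatches to mmu-miR-148a-3p and 3 to mmu-miR-152-3p. Each mmu-miR-152-3p probe has 2 mismatches to mmu-miR-148b-3p and 3 to mmu-miR-148a-3p. How much of a relative's RNA such a probe binds was not measured on these arrays. The files place the probes of mmu-miR-148a-3p at chr6:51219874-51219892 on the minus strand, those of mmu-miR-148b-3p at chr15:103115620-103115637 and those of mmu-miR-152-3p at chr11:96711758-96711773, both on the plus strand, in the build mm9. These spans are 1 base shorter than the longer probe of each pair.

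All 3 guide members passed the test between the groups, and they did not move the same way. mmu-miR-148a-3p fell in db/db kidneys, to a level 1.40-fold below control. mmu-miR-148b-3p rose 1.28-fold and mmu-miR-152-3p rose 1.20-fold. The log2 changes were -0.49, 0.36 and 0.26. Signals are given as the mean over a miRNA's probes, after each array was scaled to an equal 75th percentile over the 269 miRNAs that every array detected. A level can be compared between arrays and not between miRNAs, whose probes differ in brightness.

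For mmu-miR-148a-3p the scaled signal was 29.0, 33.8, 30.8 and 34.0 in control samples 1 to 4. In db/db samples 1 to 4 it was 24.9, 22.5, 22.0 and 21.8. Every control sample lay above every db/db sample, and db/db sample 1 was the highest of its group. The control mean was 31.9 ± 2.42 and the db/db mean 22.8 ± 1.44 (SD, n = 4 each). On the log2 scale it went from 4.99 ± 0.11 to 4.51 ± 0.089, a change of -0.49 (SE 0.069, 95% interval -0.64 to -0.33; limma, adjusted p = 0.000944). Among the 316 tested miRNAs this was the 29th lowest change, and 26 of the miRNAs called in the test fell further.

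For mmu-miR-148b-3p the scaled signal was 66.6, 69.9, 65.5 and 66.4 in control samples 1 to 4. In db/db samples it was 83.7, 89.3, 85.0 and 86.2. The groups did not overlap, and within each group the samples lay close together, with sample 2 highest in both. The control mean was 67.1 ± 1.94 and the db/db mean 86.0 ± 2.42 (SD, n = 4 each). The log2 level went from 6.07 ± 0.041 to 6.43 ± 0.040, a change of 0.36 (SE 0.040, 95% interval 0.27 to 0.45; limma, adjusted p = 0.000420). This was the 43rd highest change of the 316, and 41 called miRNAs rose further.

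For mmu-miR-152-3p the scaled signal was 184, 195, 204 and 213 in control samples 1 to 4. In db/db samples it was 238, 227, 244 and 243. The groups did not overlap, although control sample 4 and db/db sample 2 came near each other. The control mean was 199 ± 12.1 and the db/db mean 238 ± 7.51 (SD, n = 4 each). The log2 level went from 7.63 ± 0.088 to 7.89 ± 0.046, a change of 0.26 (SE 0.054, 95% interval 0.14 to 0.38; limma, adjusted p = 0.00531). It was the 56th highest change of the 316.

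**Figure D1:**
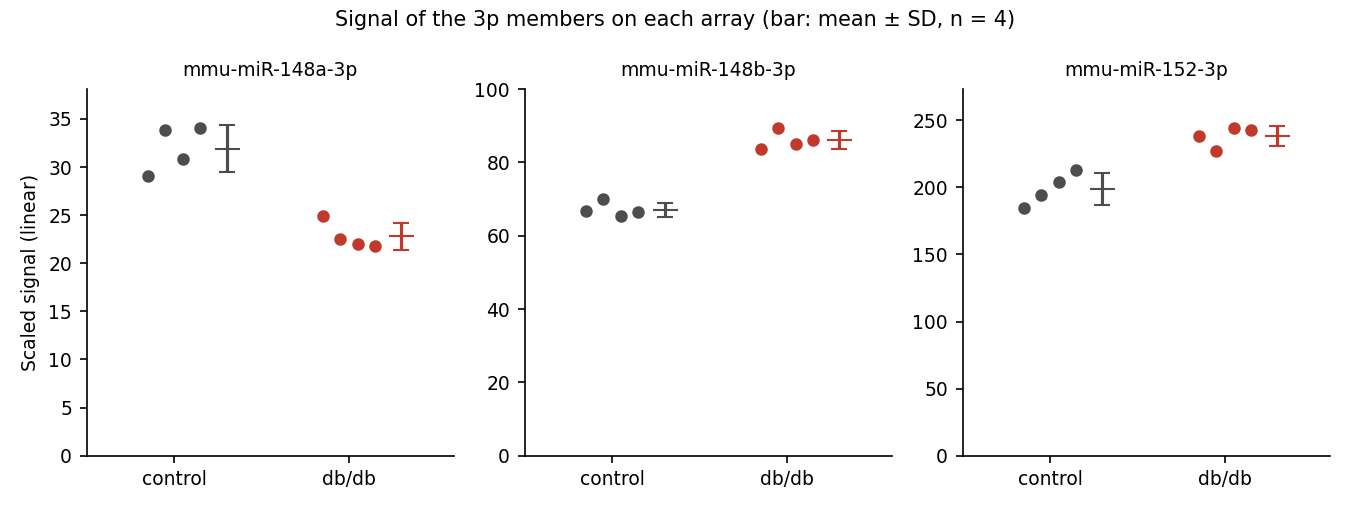
Scaled signal (linear axis from 0) of the 3 guide members on each array, with control arrays in grey and db/db arrays in red; the bar beside the points is the mean ± SD (n = 4). mmu-miR-148a-3p sits between 29.0 and 34.0 in control and between 21.8 and 24.9 in db/db kidneys, while both other members are higher in every db/db sample.

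Calls were common on these arrays, so the family's calls have to be read against that background. Of the 316 tested miRNAs, 132 passed an adjusted p of 0.05 in either direction, which is 41.8%; 77 were higher in db/db kidneys (24.4%) and 55 lower (17.4%). The groups did not overlap for 131 of them (41.5%). Of the 6 family members, 3 were tested, 2 were higher and 1 was lower. The changes of the family were of ordinary size for called miRNAs, whose median absolute log2 change was 0.41. Over all tested miRNAs the median absolute change was 0.17, which each of the 3 tested members exceeded. The median of the signed changes over all tested miRNAs was -0.024. The split of calls depended on the scaling: 58.3% of called miRNAs were higher as reported, 78.1% without scaling, 77.9% with scaling to spike-in controls, 46.9% after quantile normalization and 67.6% with the percentile taken over all miRNAs.

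**Figure D2:**
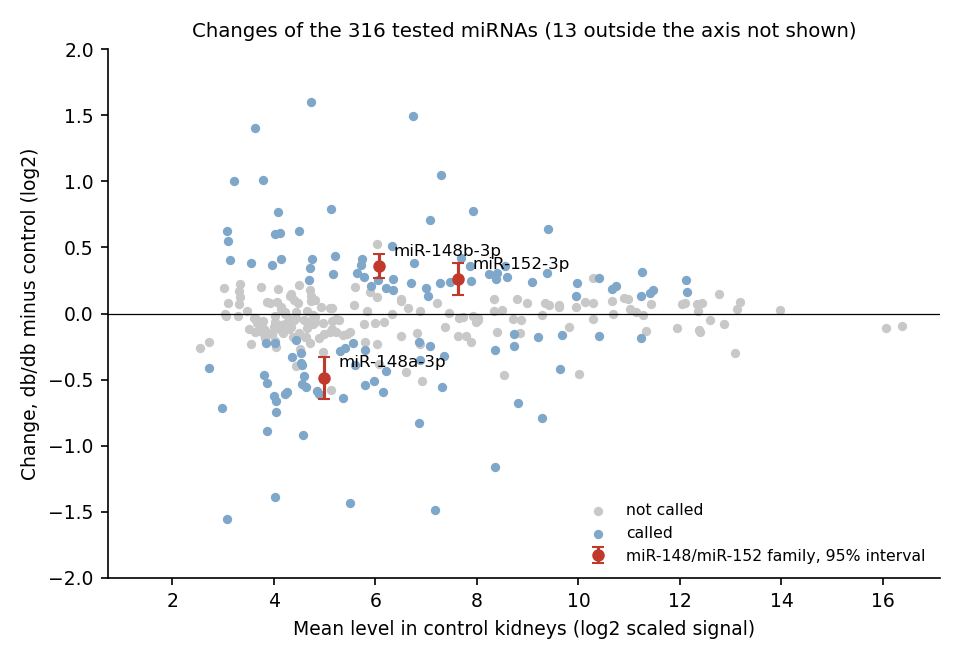
Log2 change of each tested miRNA (db/db minus control) against its mean log2 scaled signal in control kidneys, with called miRNAs in blue, others in grey, and the family in red with 95% intervals. mmu-miR-148a-3p lies among the falling miRNAs at -0.49 and both other members among the rising ones at 0.36 and 0.26; 13 miRNAs with rises above 2 lie outside the axis.

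Scaling by 1 factor per array shifts the change of every miRNA above the floor by the same amount, so values relative to the median are the same by construction. Without scaling, the median of all tested miRNAs shifted to 0.10, and with spike-in scaling to 0.15. Relative to that median, the change of mmu-miR-148a-3p was -0.46, that of mmu-miR-148b-3p 0.38 and that of mmu-miR-152-3p 0.28. In the test against 0, the call of mmu-miR-148a-3p was lost with spike-in scaling (-0.31, limma, adjusted p = 0.0585), and that of mmu-miR-152-3p after quantile normalization (0.15, adjusted p = 0.154) and in the authors' deposited value table (0.21, adjusted p = 0.0647). All 3 calls were lost when the percentile was taken over all miRNAs, where that percentile fell on an unscaled signal of 2.31 to 4.14. With normexp background correction, which added an offset of 50 to every signal, the 3 calls held, but the changes shrank to -0.20, 0.15 and 0.19. Such an offset makes log2 changes smaller by construction, most of all for dim miRNAs.

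**Figure D3:**
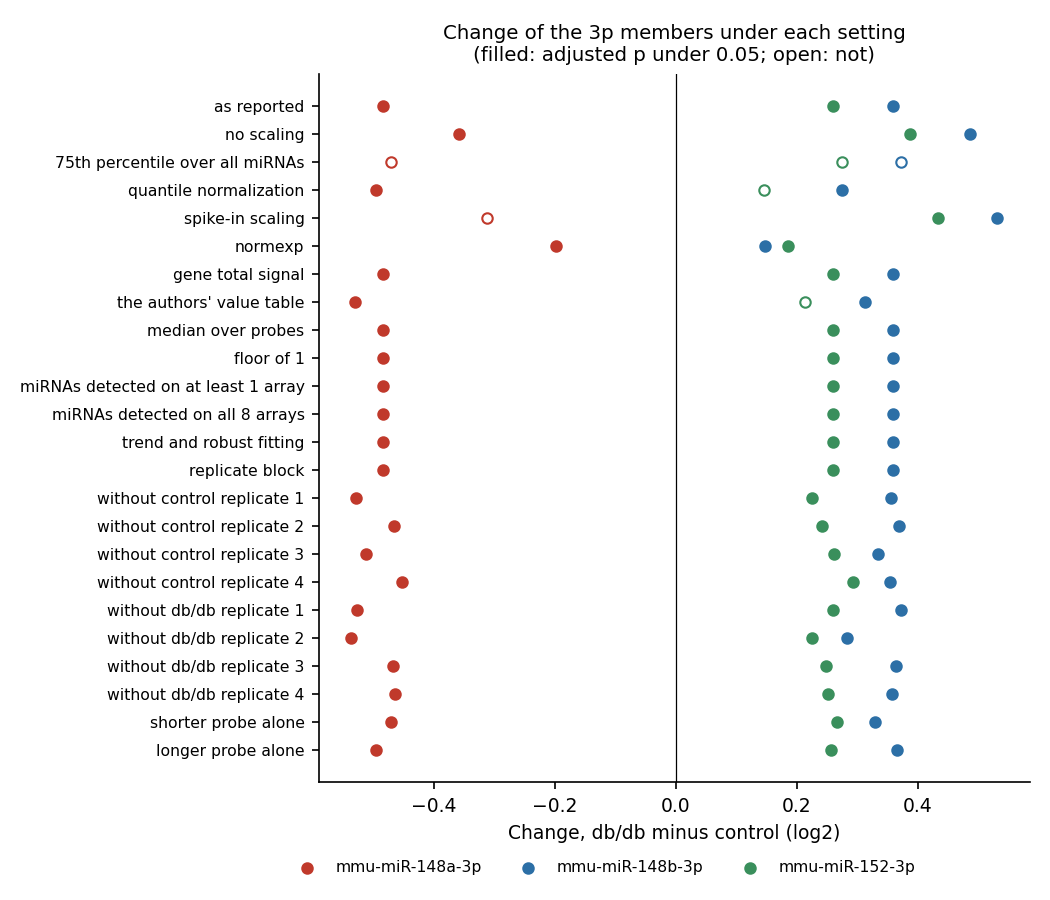
Log2 change (db/db minus control) of the 3 guide members as reported and under each alternative, one row per setting; filled points passed an adjusted p of 0.05 and open points did not. mmu-miR-148a-3p stays below 0 in all rows (-0.54 to -0.20), and mmu-miR-148b-3p (0.15 to 0.53) and mmu-miR-152-3p (0.15 to 0.43) stay above it. Rows for the median over probes, floor, filter, fit and replicate block repeat the reported change by construction.

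The difference between 2 members on the same array does not depend on the factor by which that array was scaled, and it was compared between the groups for the 3 pairs. The log2 difference of mmu-miR-148a-3p minus mmu-miR-148b-3p was -1.20, -1.05, -1.09 and -0.96 in control samples 1 to 4. In db/db samples it was -1.75, -1.99, -1.95 and -1.98. No db/db array came near the control range. The mean went from -1.07 ± 0.097 to -1.92 ± 0.11 (SD, n = 4 each), so the ratio of the former to the latter was 1.79-fold lower in db/db kidneys (change -0.84; exact permutation test over 70 assignments, 2-sided, p = 0.0286, adjusted over 3 pairs 0.0429). With 4 arrays a group, 0.0286 is the smallest p this test can give. Each of these members alone separated the groups, in opposite directions, so their difference had to reach it. The test therefore adds no support beyond the members' own results.

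mmu-miR-148a-3p minus mmu-miR-152-3p was -2.67, -2.52, -2.73 and -2.64 in control and -3.26, -3.34, -3.47 and -3.48 in db/db samples. The groups again lay apart. This separation and its p also follow from the members' own results. The mean went from -2.64 ± 0.084 to -3.39 ± 0.11 (SD, n = 4 each), a ratio 1.68-fold lower in db/db kidneys (change -0.75; exact permutation test, 2-sided, p = 0.0286, adjusted 0.0429). mmu-miR-148b-3p minus mmu-miR-152-3p was -1.47, -1.48, -1.64 and -1.68 in control and -1.51, -1.35, -1.52 and -1.49 in db/db samples. Here the groups overlapped. The mean went from -1.57 ± 0.11 to -1.47 ± 0.081 (SD, n = 4 each), and the change of 0.098 did not pass (exact permutation test, 2-sided, p = 0.286, adjusted 0.286). Leaving out each array in turn kept that last change between 0.058 and 0.13, against -0.90 to -0.81 and -0.79 to -0.71 for the pairs with mmu-miR-148a-3p. With normexp background correction and its offset the latter shrank to -0.35 and -0.38, and the change for mmu-miR-148b-3p and mmu-miR-152-3p was -0.037.

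**Figure D4:**
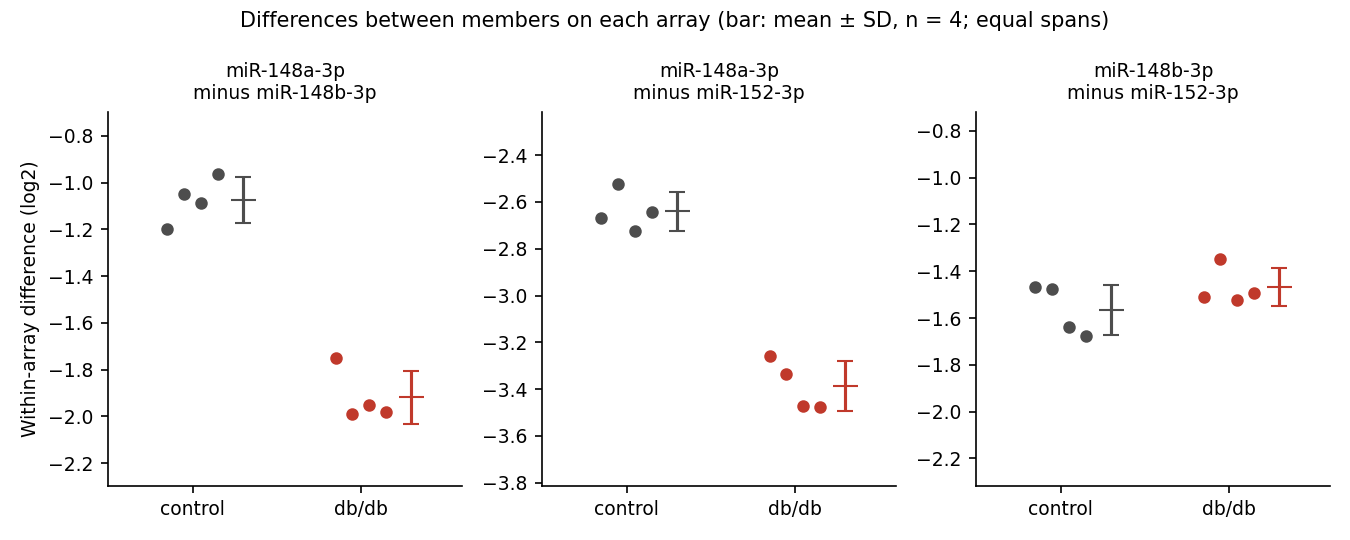
Within-array log2 difference between each pair of guide members, with control arrays in grey and db/db arrays in red, mean ± SD beside the points (n = 4), and axes of equal span. Both differences with mmu-miR-148a-3p drop without overlap (-1.07 to -1.92 and -2.64 to -3.39 on average), while that of mmu-miR-148b-3p and mmu-miR-152-3p overlaps.

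The probes of a member gave the same direction. The 19-base probe of mmu-miR-148a-3p was dim: 59 of 60 spots were well above background in control but only 26 of 60 in db/db kidneys. It read 25.3, 28.1, 25.9 and 27.7 in control and 22.4, 18.8, 18.6 and 17.6 in db/db samples, a log2 change of -0.47. Its 20-base probe read 32.8, 39.5, 35.8 and 40.4 in control and 27.4, 26.2, 25.3 and 26.0 in db/db samples, a change of -0.50, with 60 and 47 of 60 spots well above background. Neither probe had overlapping groups, although db/db sample 1 was the highest of its group in both.

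The probes of mmu-miR-148b-3p differ by 1 base in length and were far apart in brightness. The 18-base probe averaged 20.8 ± 1.89 in control and 26.1 ± 1.76 in db/db kidneys, and the 19-base probe 113 ± 3.87 and 146 ± 3.34 (SD, n = 4 each). Their log2 changes were 0.33 and 0.37, so the dim and the bright probe moved alike. The 16-base probe of mmu-miR-152-3p averaged 174 ± 11.0 and 209 ± 6.27, and its 17-base probe 224 ± 13.5 and 267 ± 9.05 (SD, n = 4 each), with changes of 0.27 and 0.26. All 6 probes separated the groups without overlap, as did 41.5% of the tested miRNAs. The share over all probes was not counted. The 2 probes of a member differ by 1 base, so the 6 are not independent readings.

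**Figure D5:**
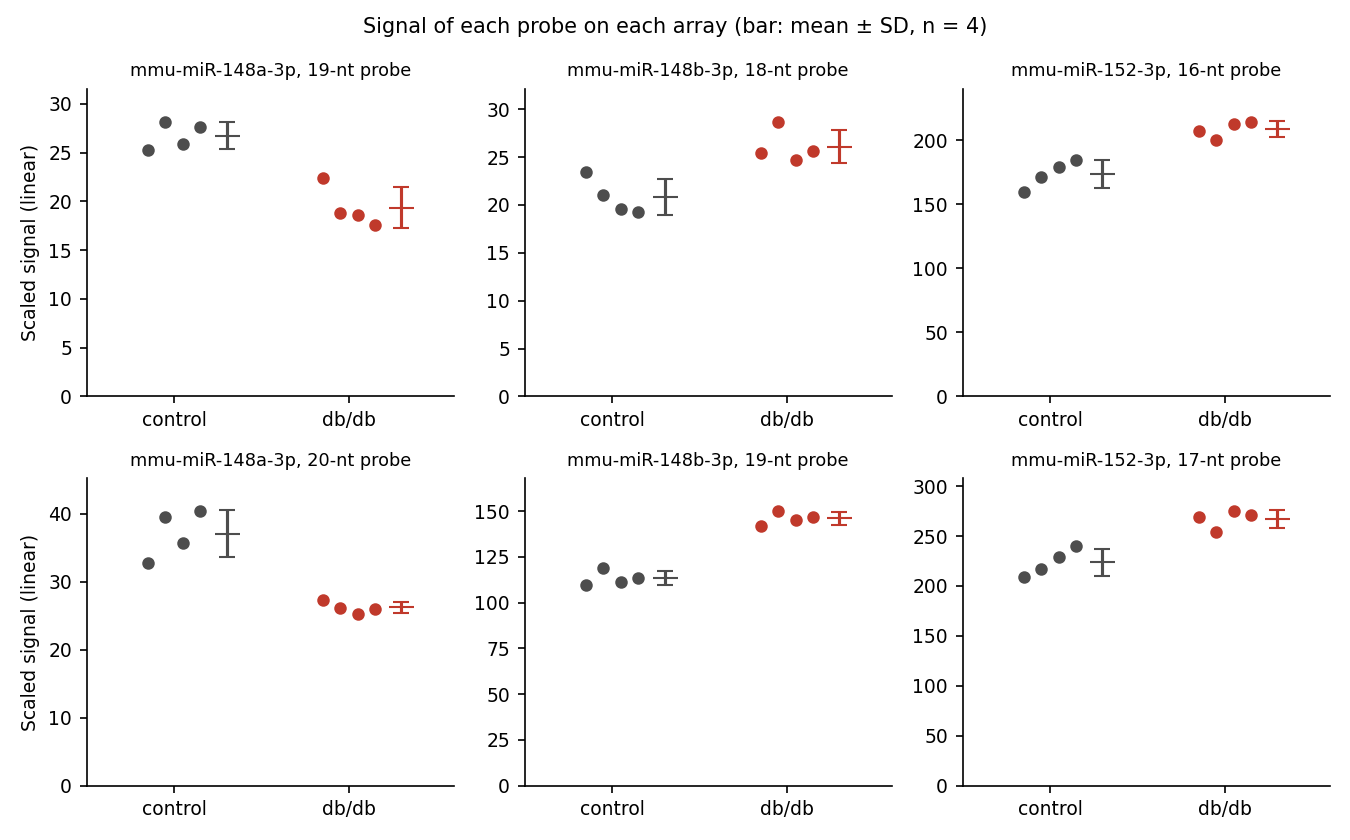
Scaled signal (linear axes from 0) of each of the 6 probes of the guide members, control arrays in grey and db/db arrays in red, mean ± SD beside the points (n = 4). Both probes of mmu-miR-148a-3p are lower in db/db kidneys (changes -0.47 and -0.50), and both probes of each other member are higher.

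Each member had 30 spots per array, 240 in all. For mmu-miR-152-3p all 240 spots were well above background, for mmu-miR-148b-3p 208 (86.7%) and for mmu-miR-148a-3p 192 (80%). The share of mmu-miR-148a-3p went down, as did its signal, from 119 of 120 spots in control to 73 of 120 in db/db kidneys. This count was uneven, and db/db sample 2 had the fewest. It had 2 of 15 spots on the 19-base probe and 5 of 15 on the 20-base probe. The other db/db samples had 5 to 12 and 13 to 15. For mmu-miR-148b-3p the share went up, from 97 to 111 of 120, and the spots not well above background were all on the 18-base probe. None of the spots was saturated. The unscaled signal of mmu-miR-148a-3p was 22.2 to 35.9, against a spread (SD) of 3.22 to 4.11 among negative-control spots of an array, whose median lay at 5.08 to 6.84.

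The 5p arms gave no measurable signal. mmu-miR-148a-5p has 4 probes and mmu-miR-148b-5p and mmu-miR-152-5p have 2 each. For each of them 0 of 240 spots were well above background. The unscaled probe signals were -6.63 to -0.57 for mmu-miR-148a-5p, -0.13 to 4.39 for mmu-miR-148b-5p and -4.53 to -0.14 for mmu-miR-152-5p. In the authors' deposited value table the 3 of them hold the same number on each array, such as 1.11 in control sample 1 and 0.857 in db/db sample 1. Their levels were below what these arrays could show, and no comparison between the groups was made.

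The family's seed overlaps, shifted by 1 base, with that of miR-130 and miR-301. Of the mature mouse miRNAs in the RefSeq table, 7 have as bases 2 to 7 the bases 3 to 8 of the family. All 7 are on the array. The search covered only the 1608 of 1881 array miRNAs that the RefSeq table matched by name. Of the 7, only mmu-miR-130a-3p and mmu-miR-301a-3p were detected, shown here with the seed in capitals.
mmu-miR-130a-3p: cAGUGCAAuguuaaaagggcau
mmu-miR-301a-3p: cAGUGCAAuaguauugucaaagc

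mmu-miR-301a-3p rose by 0.24 (log2, SE 0.053; limma, adjusted p = 0.00714), a call lost in 3 of 21 alternatives, among them quantile normalization (0.19, adjusted p = 0.0548) and the authors' deposited value table (0.19, adjusted p = 0.0591). mmu-miR-130a-3p had a change of 0.12 (SE 0.042) that did not pass (adjusted p = 0.0515) as reported but passed in 8 of 21 alternatives; its groups did not overlap. mmu-miR-130b-3p and mmu-miR-301b-3p, which complete the miR-130/miR-301 family, were detected on no array.

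Other miRNAs known to act on the same targets were set beside the family. Of 8 miRNAs known to act on DNA methyltransferases, all were tested, 0 were higher and 1 was lower, against 24.4% higher and 17.4% lower over all tested miRNAs. Their median log2 change was -0.046, against -0.024 over all. The 1 that fell was mmu-miR-342-3p (-0.51, SE 0.045; limma, adjusted p = 0.000137), which also stands in the list of leukocyte marker miRNAs. The miR-29 members, which act on the de novo methyltransferases, had changes of -0.048 (mmu-miR-29a-3p), 0.079 (mmu-miR-29b-3p) and 0.071 (mmu-miR-29c-3p), none of which passed. mmu-miR-126a-3p (-0.11), mmu-miR-185-5p (-0.14), mmu-miR-101a-3p (0.086) and mmu-miR-143-3p (-0.044) did not pass either. Of 21 alternatives, mmu-miR-126a-3p and mmu-miR-185-5p passed in 4 each and mmu-miR-101a-3p in 3.

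Of 10 miRNAs known to act on the mRNA of the LDL receptor or of Abca1, 8 were tested, 1 was higher and 1 was lower, against the same 24.4% and 17.4% over all tested miRNAs, and their median log2 change was 0.038. mmu-miR-27b-3p rose by 0.23 (SE 0.045; limma, adjusted p = 0.00399), but by 0.11 after quantile normalization, where its call was lost (adjusted p = 0.122). mmu-miR-20a-5p fell by 0.16 (SE 0.041; adjusted p = 0.0151), but its change was 0.016 with spike-in scaling. mmu-miR-33-5p, which lies in the cholesterol regulator Srebf2 and acts on Abca1, had a change of -0.058 that did not pass. mmu-miR-128-3p (0.081), mmu-miR-27a-3p (0.047), mmu-miR-106b-5p (0.030) and mmu-miR-144-3p (0.53, SE 0.66) did not pass. Neither did mmu-miR-185-5p (-0.14), which also stands in the DNA methyltransferase list, so the lists are not independent. mmu-miR-144-3p is an erythroid miRNA whose log2 level spread by 1.03 (SD) in control and 1.13 in db/db kidneys.

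The miRNAs with the most similar profiles over the 8 arrays were found by the root mean square difference of log2 signals centred on the control mean, a measure that also fixes the direction of those it finds. The 5 nearest to mmu-miR-148a-3p were mmu-miR-669p-3p (0.096), mmu-miR-466i-3p (0.11), mmu-miR-342-3p (0.11), mmu-miR-467f (0.11) and mmu-miR-326-3p (0.12), while the median over all tested miRNAs was 0.37. Many miR-466, miR-467 and miR-669 miRNAs belong to the large mouse miRNA cluster in an intron of Sfmbt2. Whether those named here lie in it was not looked up. The distance from mmu-miR-148a-3p was 0.60 to mmu-miR-148b-3p and 0.53 to mmu-miR-152-3p, both above that median.

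The 5 nearest to mmu-miR-148b-3p were mmu-miR-23b-3p (0.054), mmu-miR-139-5p (0.059), mmu-miR-30d-5p (0.059), mmu-miR-322-5p (0.062) and mmu-miR-28a-5p (0.062), against a median of 0.32. The 5 nearest to mmu-miR-152-3p were mmu-miR-30a-3p (0.038), mmu-miR-30c-5p (0.039), mmu-miR-151-5p (0.056), mmu-miR-10b-5p (0.059) and mmu-miR-10a-5p (0.059), against a median of 0.29. The miR-30 family, abundant in kidney epithelium, appears in both sets. mmu-miR-148b-3p and mmu-miR-152-3p lay 0.11 apart.

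In whole kidney, fewer cells of a type and less RNA per cell cannot be told apart, and several cell type markers moved with the groups. All 6 kidney tubule miRNAs were detected; 4 of 6 were higher and 0 lower (24.4% and 17.4% over all tested miRNAs), and their summed scaled signal was 13161 to 13981 in control and 14879 to 15399 in db/db kidneys, the direction of mmu-miR-148b-3p and mmu-miR-152-3p. The call of mmu-miR-10a-5p was lost in 8 of 21 alternatives and that of mmu-miR-10b-5p in 2 of 21. The calls of mmu-miR-204-5p and mmu-miR-30a-5p were not followed over the alternatives. Of 7 leukocyte miRNAs, 6 were lower and 0 higher, with sums of 661 to 843 and 298 to 410, the direction of mmu-miR-148a-3p. One of the 6, mmu-miR-150-5p, was detected on 4 control arrays but on 1 db/db array, so it was tested only through the group where it is high. All 3 stromal miRNAs were lower (940 to 1146 and 753 to 814), also the direction of mmu-miR-148a-3p. The 2 tested erythroid miRNAs, of 3 listed, had none called and ranged widely in both groups (706 to 3080 and 648 to 3581), and neither of 2 endothelial nor of 2 smooth muscle miRNAs was called. The 3 pancreas miRNAs were detected on no array. The liver miRNA mmu-miR-122-5p was detected on 0 control and 4 db/db arrays. Of 2 striated muscle miRNAs, mmu-miR-1a-3p rose by 0.37 (limma, adjusted p = 0.0448), but its call was lost in 10 of 21 alternatives and its change was -0.0093 in another, normexp background correction. The other of the 2 was detected on no array. The part of any of these cell types in the changes of the family was not tested. By their positions in the slide's layout, row 1 held the control arrays and row 2 the db/db arrays, and the effect of the row cannot be told apart from that of the genotype.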

How the data were processed

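Kidney total RNA of 4 control and 4 db/db samples was measured on 8 arrays with 58594 spots each, of which 56430 belong to 4415 probes of 1881 miRNAs; 305 to 352 miRNAs were detected per control array and 289 to 358 per db/db array. The deposited scanner files hold spot intensity from Agilent Feature Extraction 12.0.3.1, with spatial detrending on and background correction off, per the file headers. The authors' deposited value table holds a ratio per miRNA and array, whose scaling and reference are not given in the sources used here; a higher value means more signal, and it served as an alternative.

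Processed signals were averaged over spots that were not outliers and then over probes, scaled to an equal 75th percentile over the 269 miRNAs that every array detected, floored at 2.80 (1.48 on the log2 scale) and tested with limma 3.58.1 (lmFit, eBayes; R 4.3.3) for the 316 miRNAs that all arrays of 1 or both groups detected. Calls needed a Benjamini-Hochberg adjusted p under 0.05, 2-sided, over the 316. Pairs of members were compared with an exact permutation test. The steps were tested on simulated data. Precision is limited by having 4 arrays a group.

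The members and lists were chosen with earlier results of these data known. Named were all members, the 5 nearest profiles of each guide member, miRNAs of the same or shifted seed, and lists of miRNAs acting on DNA methyltransferases or on the LDL receptor or Abca1. Alternatives covered scaling, background correction, floor, filter, probe choice, the value table, the fit, a replicate block and each array left out. Mature and hairpin sequences came from RefSeq (GRCm38.p6); probe positions are in mm9.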

Additional observations from a re-analysis of the deposited data

Results flagged for a closer look

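In 3 of 78 groups of 4 arrays examined, 1 array lay far from the other 3; chance does this in about 1 in 20 groups. For the difference of mmu-miR-148a-3p and mmu-miR-148b-3p in db/db kidneys, sample 1 was high (-1.75 against a group median of -1.97, log2), with a gap of 0.845 of the group's range. For the difference of mmu-miR-148b-3p and mmu-miR-152-3p in db/db kidneys, sample 2 was high (-1.35 against a median of -1.50; 0.834 of the range). For mmu-miR-322-5p in control kidneys, sample 1 was low (8.43 against a median of 8.58; 0.949 of the range). Without db/db sample 1 the change of the first difference was -0.90, and without db/db sample 2 that of the second was 0.058.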

How the results depend on the processing

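The direction of mmu-miR-148a-3p, mmu-miR-148b-3p and mmu-miR-152-3p held under all 23 alternatives, and their calls held under 21, 22 and 20 of them. The alternatives of the median over probes, floor, filter, fit and replicate block cannot move the members' changes, only their p-values. They are therefore no evidence on the direction. With the 75th percentile over all miRNAs, 34 miRNAs were called, and the changes were -0.47 (limma, adjusted p = 0.297), 0.37 (0.499) and 0.27 (0.802). mmu-miR-148a-3p was -0.31 (0.0585) with spike-in scaling. mmu-miR-152-3p was 0.15 (0.154) after quantile normalization and 0.21 (0.0647) in the authors' value table. Leaving out each array gave 114 to 153 calls, and -0.54 to -0.45, 0.28 to 0.37 and 0.23 to 0.29 for the members, all still called; without db/db sample 2, 84 of 153 calls were lower. The change of mmu-miR-20a-5p was 0.016 with spike-in scaling, and that of mmu-miR-1a-3p -0.0093 with normexp. The cause of these shifts, and the part of the normexp offset in them, was not tested.

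The replicate number as a block gave 144 calls and kept the members' calls (adjusted p = 0.0120, 0.00335 and 0.0114). Deviations of same-numbered samples correlated at -0.43, 0.41, -0.046 and -0.075. With 4 samples a group, these values cannot settle whether the numbers pair the samples, which the labels do not state. For the differences between members, an exact sign-flip test over the 4 numbered pairs gave p = 0.125, the smallest it can give, for both changes with mmu-miR-148a-3p (-0.84 and -0.75), and says nothing about their stability. Over the alternatives these changes ranged from -0.90 to -0.35 and from -0.79 to -0.38, smallest with normexp, whose offset shrinks log2 changes by construction.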
